A study of Mus musculus with 14 samples.

Results

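The 39 genes described here encode the machinery of mitosis and were taken from the deposited table by gene symbol. They cover the entry kinase with its cyclins, the Polo and Aurora kinases, the kinetochore and spindle checkpoint, the anaphase-promoting complex, spindle motors and chromosome proteins. Of the 39, 35 were listed among the 10303 genes of the deposited count table, and 33 of these passed the filter on low counts and were tested among 7965 genes. Cdk1, Tpx2, Bub1 and Cenpf were not listed in the table, and Smc2 and Hmgb2 were listed but fell below the filter.

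The cells were natural killer T (NKT) cells, lipid-recognising T cells with innate-like behaviour, sorted from the thymus of young wild-type male mice. One group of 5 libraries came from mice given dexamethasone, a synthetic glucocorticoid that kills many developing thymocytes, 18 h earlier, and 4 libraries came from mice given it 3 d earlier, in both cases at 200 ug per 10 g body weight by intraperitoneal injection. The 5 control libraries came from age-matched mice that had received the vehicle, 8% ethanol, 3 d earlier, so the 18 h group had no control of its own time. Bulk MARS-seq, which reads the 3′ end of polyadenylated transcripts, gave 977037 to 2203273 counts per library, and levels are CPM, counts scaled to a common library size by the TMM method, where 1 count was worth 0.471 to 1.11 CPM. Whether a library is 1 mouse or a pool is not stated in the labels, so the p-values speak only of the spread among the 14 libraries.

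Mitosis genes are transcribed mostly in G2 and M phase, so in bulk RNA their level follows both the share of cells that divide and the amount of transcript in each dividing cell. Many of their promoters carry a CHR element (cell cycle genes homology region) a short way downstream of CCAAT boxes. The CHR is the site of the MuvB core, which represses with the DREAM complex in resting cells and activates with B-MYB and FOXM1 in G2, and CCAAT boxes are bound by NF-Y. Most NKT cells of the adult thymus are mature and rest, and division is a feature of their early stages.

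Promoters are printed for 6 members with and without these elements, chosen after their values and matches were seen. Each line holds the 120 bases before the annotated start, 5′ to 3′ on the strand of the gene, from RefSeq on GRCm38.p6 (the mm10 assembly). Capitals mark matches to the CHR (TTTGAA or TTCGAA) and to the CCAAT box on either strand, so that TTCAAA and ATTGG are the same motifs read on the opposite strand. Cdc20, Kif11, Top2a, Mki67 and Ckap2 were lower at 3 d, and Cks2 was among the members that did not pass the test in any comparison.
Cdc20 (chr4:118437344-118437463, minus strand): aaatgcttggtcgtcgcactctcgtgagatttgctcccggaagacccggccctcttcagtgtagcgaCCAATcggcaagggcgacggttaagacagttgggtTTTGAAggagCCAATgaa
Ckap2 (chr8:22185820-22185939, minus strand): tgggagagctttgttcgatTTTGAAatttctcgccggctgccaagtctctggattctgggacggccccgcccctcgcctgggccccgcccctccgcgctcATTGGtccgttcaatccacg
Kif11 (chr19:37376262-37376381, plus strand): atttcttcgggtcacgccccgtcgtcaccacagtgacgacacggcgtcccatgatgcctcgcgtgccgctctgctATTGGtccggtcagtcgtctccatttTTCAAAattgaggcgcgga
Top2a (chr11:99024190-99024309, minus strand): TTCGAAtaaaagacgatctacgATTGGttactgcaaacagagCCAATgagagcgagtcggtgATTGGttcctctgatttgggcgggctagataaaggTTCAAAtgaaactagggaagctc
Mki67 (chr7:135716380-135716499, minus strand): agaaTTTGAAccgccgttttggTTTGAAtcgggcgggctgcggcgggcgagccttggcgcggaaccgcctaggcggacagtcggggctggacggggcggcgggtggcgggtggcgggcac
Cks2 (chr13:51645112-51645231, plus strand): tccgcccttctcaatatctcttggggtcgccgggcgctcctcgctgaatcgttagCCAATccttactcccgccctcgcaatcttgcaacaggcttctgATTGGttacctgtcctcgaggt

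Cdc20, Kif11 and Top2a carried a CHR 18, 19 and 23 bases before the start, with a CCAAT box further upstream in each. Cdc20 also had a CCAAT box 8 bases before the start, and Top2a had further CHR matches 120, 140 and 179 bases before it. In Ckap2 the CHR lay upstream of the CCAAT box, with the CHR 101 bases and the CCAAT box 20 bases before the start. Mki67 had CHR matches 116 and 98 bases before the start, and its CCAAT boxes lie upstream of the printed stretch. Cks2 had CCAAT boxes 65 and 22 bases before the start and no CHR in the 300 bases searched, which ran from 250 before to 50 after the start. RefSeq promoters were at hand for 32 of the 39 genes, and only the first promoter given for each gene was searched. Either form of the CHR was present in 25 of the 32 (78.1%), against 19.3% of 26742 mouse promoters of the same length. A CCAAT box was present in 27 (84.4%, against 37.9%), and both motifs together were present in 24 (75.0%, against 7.7%). The form TTTGAA was found in 75.0% of the members' promoters and 17.9% of all promoters, and TTCGAA in 9.4% and 1.6%. Birc5, Nusap1, Tacc3 and Pttg1 had neither motif in this window. Among the members that were lower at 3 d, 18 of 23 promoters held a CHR and 20 held a CCAAT box, and among those not called the counts were 2 and 2 of 4. A match is a stretch of letters and not a measured binding site, and the 4 promoters of uncalled genes are too few to compare with the rest.

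**Figure D1:**
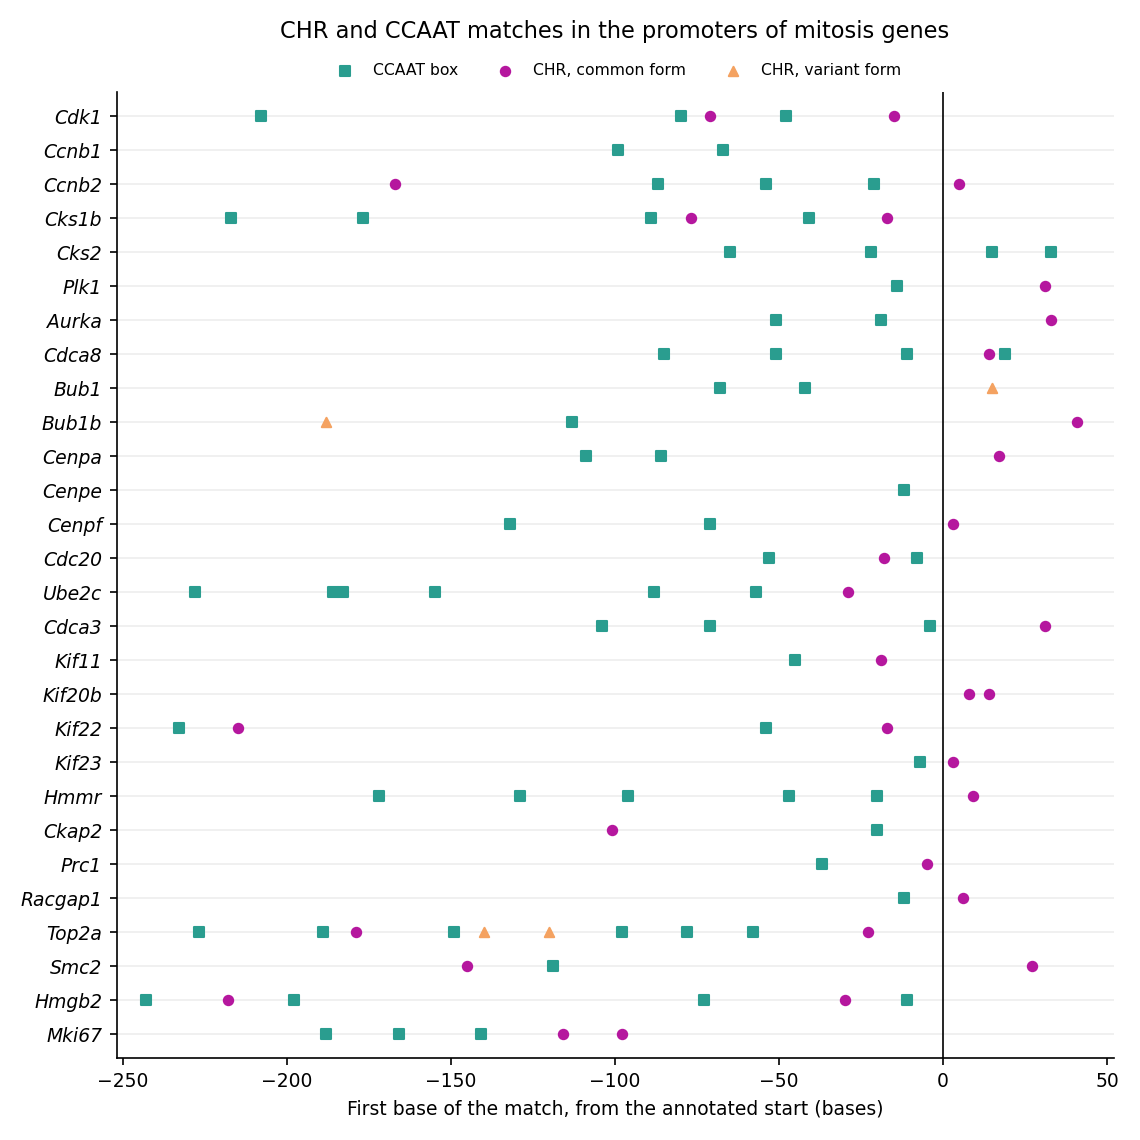
Places of CHR and CCAAT matches in the 28 member promoters with any match, as the distance in bases of the first base of the match from the annotated start (vertical line), with squares for CCAAT boxes and circles or triangles for the 2 CHR forms. CCAAT boxes lie mostly upstream of the start, and many of the CHR matches lie close to it on either side.

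Some libraries stood apart from their group. Of 12 markers of CD4+ CD8+ (double-positive) thymocytes, the immature T cells around the NKT cells, 10 were listed. Their summed level was 1602 and 1211 CPM in 18 h replicates 2 and 3, against 163 to 332 CPM in the other 18 h libraries, 235 to 504 CPM under vehicle and 123 to 148 CPM at 3 d. Cd8b1 made most of it in those 2 libraries, at 1008 and 648 CPM, and was at 9.43 to 27.5 CPM in the other 3 of the group. In all the remaining libraries Cd4 made most of the sum. Cd4 was at 163 to 332 CPM under vehicle, 119 to 274 CPM in the other 3 libraries at 18 h and 91.0 to 105 CPM at 3 d. In 18 h replicates 2 and 3 it was at 316 and 374 CPM. Cd8a was at 182 and 113 CPM against 1.89 to 5.02 CPM, Cd24a at 30 and 17.7 CPM against 0.472 to 4.18 CPM, and Dntt at 12.8 and 7.36 CPM against 0 to 2.06 CPM. Under vehicle Dntt was at 12.2 to 37.5 CPM, and at 3 d it was at 0 to 0.847 CPM. Against vehicle it was lower at 18 h (-2.51, adjusted p = 0.00263) and at 3 d (-5.24, adjusted p = 3.99e-04). Rag1, which recombines antigen receptor genes in immature thymocytes, was at 0.856 and 0 CPM in replicates 2 and 3, at 0 to 1.67 CPM in the other 3 and at 1.02 to 6.94 CPM under vehicle. Of 11 NKT markers, 8 were listed, and they summed to 2922 to 3516 CPM under vehicle, 1697 to 2283 CPM at 18 h and 2628 to 3302 CPM at 3 d. Of these 8, 5 were lower at 18 h and 3 at 3 d, against 17.3% and 13.8% of all tested genes. In 18 h replicates 2 and 3, Klrb1c was at 15.4 and 28.0 CPM against 37.25 to 72.7 CPM in the other 3. Tbx21 was at 12.8 and 30.9 CPM against 38.7 to 115 CPM, and Zbtb16 at 18.8 and 35.3 CPM against 50.2 to 77.3 CPM. Cd44 was also lower in those 2 libraries, Cd3e, Cd3d and Cd3g were higher, and Il2rb overlapped. Macrophage markers summed to 812 to 1659 CPM under vehicle, 430 to 2002 CPM at 18 h and 2051 to 7655 CPM at 3 d. Of their 8 tested genes, 2 were higher at 3 d, against 12.1% of all tested genes. They were Apoe (457 to 3126 CPM in the mean) and C1qa (111 to 319 CPM), and Csf1r, Lyz2, Cd68, C1qb, C1qc and Mrc1 were not called at 3 d. At 18 h 2 were higher, against 17.0% of all tested genes. They were Mrc1 (0.536 to 8.05 CPM in the mean, adjusted p = 4.23e-04) and Cd68 (21.9 to 58.8 CPM, adjusted p = 0.0105). B cell markers reached at most 14.6 CPM and epithelial markers at most 4.65 CPM in any library, and no erythroid marker was listed.

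Mitosis genes fell after dexamethasone, in part at 18 h and much further at 3 d. At 18 h, 19 of the 33 tested members were lower than under vehicle, 0 were higher and 14 did not pass the test, where 17.3% of all tested genes were called lower and 17.0% higher. At 3 d, 28 were lower, 0 were higher and 5 (Cks2, Pttg1, Kif20b, Kif23 and Smc4) did not pass, against 13.8% of all genes called lower and 12.1% higher. The median log2 fold change of the tested members was -0.85 at 18 h and -2.97 at 3 d, and that of all tested genes was 0.01 and 0.03. Every 18 h library lay below every vehicle library for 13 members, a pattern seen in 10.3% of all genes, and every 3 d library did so for 30 members, against 12.2%. Tested directly, 3 d was lower than 18 h for 26 members and higher for 0, against 6.91% and 4.78% of all genes, with a median of -2.11 (all genes -0.01) and no overlap of the libraries for 20 members (6.14%). By edgeR no member was higher in any of the comparisons even at an unadjusted p below 0.05, and DESeq2 and limma voom also called 0 higher in each. Both comparisons with vehicle share the same control libraries. In these bulk samples fewer dividing cells and less transcript per cell cannot be told apart.

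**Figure D2:**
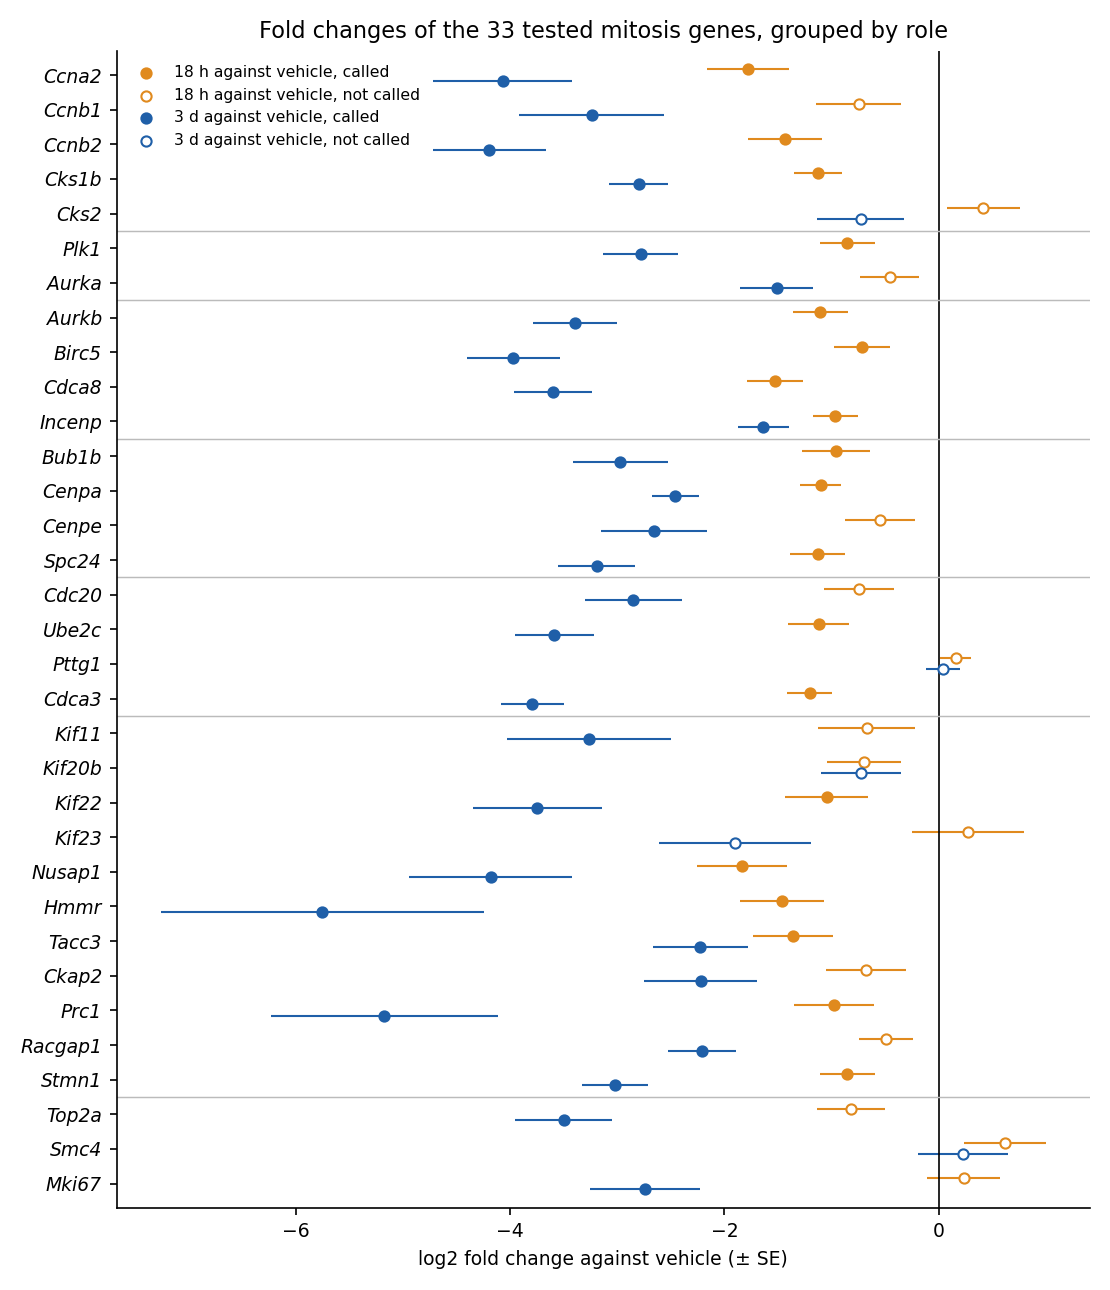
Log2 fold change against vehicle (points, with SE bars) of the 33 tested mitosis genes at 18 h (orange) and 3 d (blue), grouped by role from the cyclins at the top to chromosome structure at the bottom, with filled points for adjusted p below 0.05. Each blue point lies to the left of its orange one, that of Kif20b only just. Pttg1 sits near 0 at both times, and Smc4 is at 0.62 at 18 h and 0.23 at 3 d, not called at either.

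The summed level of the 35 listed members was 2540, 2255, 1903, 2654 and 2085 CPM in vehicle replicates 1 to 5. It was 791, 1607, 1731, 735 and 1389 CPM in 18 h replicates 1 to 5 and 389, 324, 446 and 507 CPM in 3 d replicates 1 to 4. No group overlapped another on this sum, and within the 18 h group the highest sums were those of replicates 3 and 2, the libraries with the Cd8b1 transcripts. Both of those libraries lay above the other 3 of the group for 20 of the 33 tested members, against 13.2% of all tested genes, and both were at or above the lowest vehicle library for 11, against 61.8%. The other 3 libraries were all below vehicle for 21 members, against 14.1% of all tested genes. Without replicates 2 and 3, 23 members were lower at 18 h, where 13.7% of all tested genes were, with a median of -1.33, and all 19 of the first count were among them. The added members were Ccnb1, Cdc20, Racgap1 and Top2a. Between 3 d and 18 h, 20 members were then lower, against 5.31% of all tested genes, with a median of -1.60. The part of the thymocyte and macrophage transcripts in the vehicle, 18 h and 3 d levels was not tested.

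**Figure D3:**
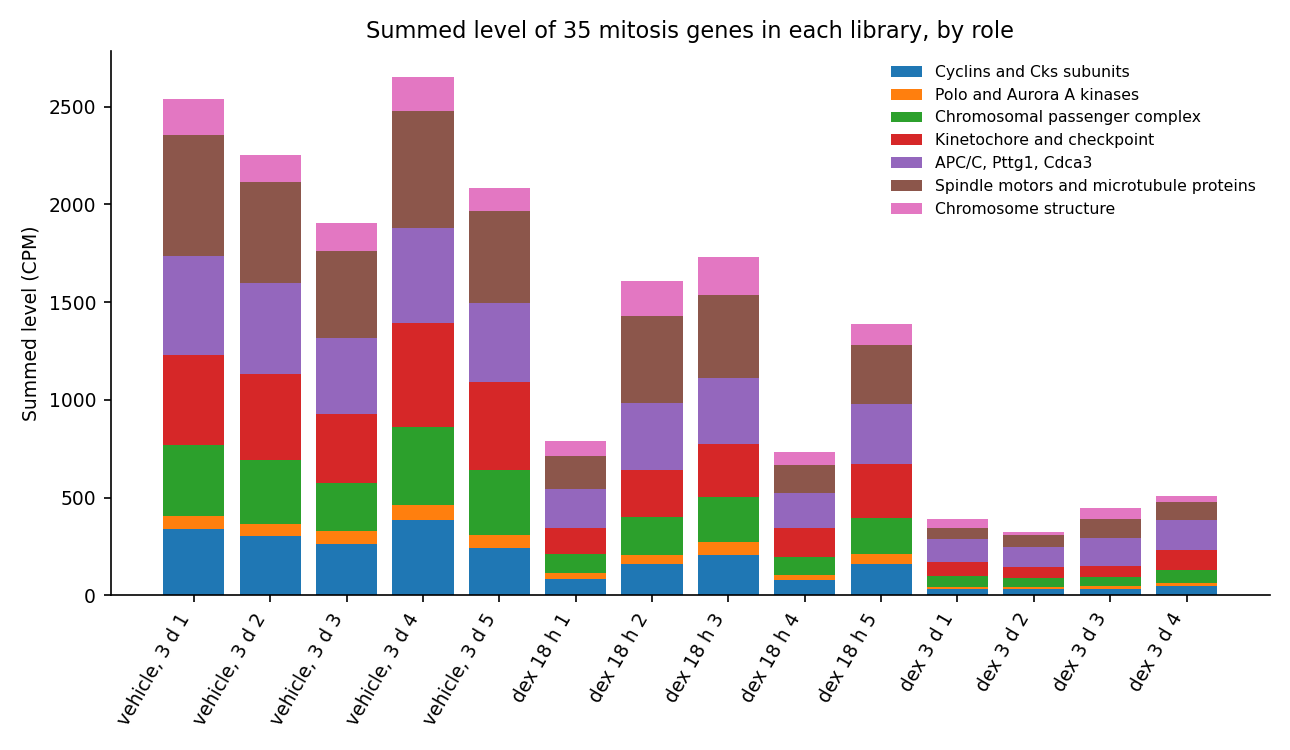
Summed level in CPM of the 35 listed mitosis genes in each of the 14 libraries, stacked by role. Bars are 1903 to 2654 CPM under vehicle, 735 to 1731 CPM at 18 h and 324 to 507 CPM at 3 d, and each role shrinks between vehicle and 3 d.

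**Figure D4:**
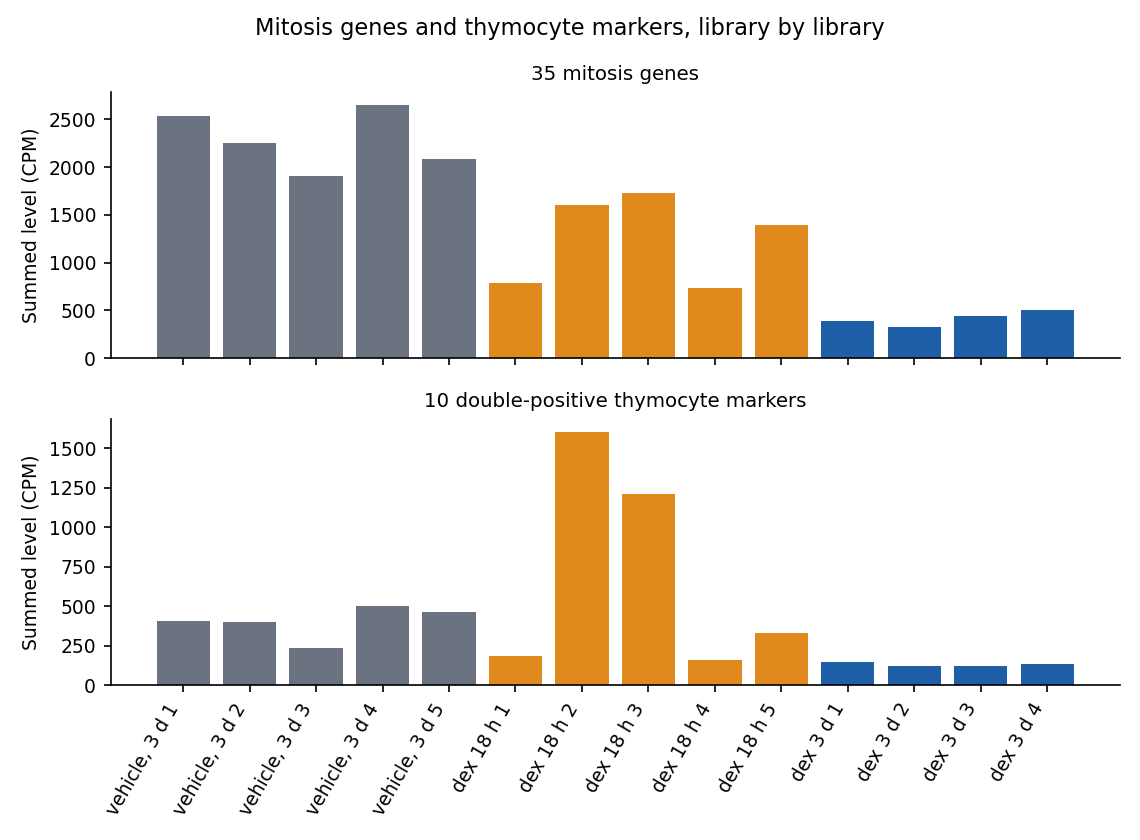
Summed level in CPM of the mitosis genes (top) and of 10 listed double-positive thymocyte markers (bottom) in the same libraries, vehicle in grey, 18 h in orange and 3 d in blue. The 18 h replicates 2 and 3 are the highest libraries in the lower panel (1602 and 1211 CPM) and the highest of their group in the upper panel (1607 and 1731 CPM). In all the remaining libraries most of the lower bar is Cd4.

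Entry into mitosis depends on Cdk1, which was not listed, together with A-type and B-type cyclins and the small Cks subunits that help it bind phosphorylated substrates. Of the 5 tested members of this group, 3 were lower at 18 h, 4 at 3 d and 4 between the times. For this and each later role, the shares of all tested genes called lower were 17.3%, 13.8% and 6.91% in these comparisons. From here on, values are in the order of replicates, 1 to 5 for vehicle and 18 h and 1 to 4 for 3 d. Ccna2 (cyclin A2, which acts in S phase and early mitosis) was at 36.5, 40.0, 24.4, 55.2 and 30.1 CPM under vehicle, at 5.02, 12.8, 25.8, 5.19 and 6.18 CPM at 18 h and at 0.664, 3.79, 1.69 and 2.76 CPM at 3 d. Only 18 h replicate 3 reached into the vehicle range, and the 3 d libraries lay below all others. Ccna2 fell by 1.78 ± 0.38 (log2, SE) at 18 h (adjusted p = 0.00128) and by 4.07 ± 0.65 at 3 d (adjusted p = 2.5e-05). Without 18 h replicates 2 and 3 its 18 h change was -2.75 (adjusted p = 1.09e-05). The step from 18 h to 3 d, -2.29 ± 0.67 (adjusted p = 0.0155), was no longer called without 3 d replicate 1 (-1.96, adjusted p = 0.059) or 3 d replicate 3 (-2.20, adjusted p = 0.0503), nor without 18 h replicates 2 and 3 (-1.32, adjusted p = 0.134). The 3′ end of Ccna2 overlaps that of Exosc9 on the other strand, and no source used here says whether counting used the strand.

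Ccnb1 (cyclin B1, the partner of Cdk1 in M phase) passed the test at 3 d and not at 18 h. It was at 14.7, 13.3, 17.8, 17.1 and 12.3 CPM under vehicle, at 6.69, 14.6, 12.5, 3.30 and 9.61 CPM at 18 h and at 0, 0, 2.54 and 3.44 CPM at 3 d. The 18 h replicates 2 and 3 were within the vehicle range and the other 3 were below it, while all 3 d libraries were below vehicle. The 18 h change was -0.75 ± 0.40 and was not called (adjusted p = 0.147), and without replicates 2 and 3 it was -1.26 and called (adjusted p = 0.045). At 3 d Ccnb1 fell by 3.24 ± 0.68 (adjusted p = 3.61e-04), and it was lower at 3 d than at 18 h (-2.49 ± 0.69, adjusted p = 0.00825), a difference that was not called without 18 h replicates 2 and 3 (adjusted p = 0.0652). Up to 84.3% of the 36-base stretches in the last 500 bases of a Ccnb1 transcript also occur in other annotated transcripts, among them Ccnb1-ps, so its count is uncertain. Ccnb2, the other B-type cyclin, fell from 120 ± 32.7 CPM (SD, n = 5) to 44.6 ± 23.4 CPM (n = 5) at 18 h and 6.28 ± 4.84 CPM (n = 4) at 3 d, 37.2% and 5.24% of vehicle, with log2 changes of -1.43 ± 0.35 (SE, adjusted p = 0.00519) and -4.19 ± 0.53 (adjusted p = 2.46e-05).

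The Cks subunits gave unlike calls, and the difference between them was not tested. Cks1b was at 124, 109, 129, 148.5 and 83.3 CPM under vehicle, at 26.8, 60.8, 73.6, 38.7 and 73.5 CPM at 18 h and at 14.6, 18.0, 17.8 and 17.9 CPM at 3 d. The 3 groups did not overlap, and the 3 d libraries lay within a narrow range. Cks1b fell by 1.13 ± 0.22 at 18 h (adjusted p = 6.2e-04), by 2.80 ± 0.27 at 3 d (adjusted p = 6.02e-07) and by 1.68 ± 0.28 between the times (adjusted p = 3.49e-04). Cks2 was at 14.1 ± 6.43, 19.6 ± 8.05 and 8.44 ± 2.05 CPM in the same order (SD), overlapped between all groups and was not called in any comparison (3 d against vehicle -0.73 ± 0.40, adjusted p = 0.181). Stretches of the Cks2 transcript end also occur in 3 other annotated genes (41.7% of them).

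Polo-like kinase 1 (Plk1) and Aurora A (Aurka) drive centrosome maturation and spindle assembly, and Tpx2, which activates Aurora A on the spindle, was not listed. Plk1 was at 50.2, 45.6, 48.8, 57.4 and 52.4 CPM under vehicle, at 17.6, 32.5, 51.5, 13.2 and 28.2 CPM at 18 h and at 7.31, 7.59, 9.32 and 5.51 CPM at 3 d. Only 18 h replicate 3 was within the vehicle range, and the 3 d libraries were below all others. Plk1 fell by 0.85 ± 0.26 at 18 h (adjusted p = 0.015), by 2.78 ± 0.35 at 3 d (adjusted p = 6.35e-06) and by 1.93 ± 0.36 between the times (adjusted p = 7.03e-04). Without 18 h replicates 2 and 3 its 18 h change was -1.39 (adjusted p = 3.66e-04). Aurka was at 18.6 ± 2.07, 13.6 ± 5.83 and 6.38 ± 2.13 CPM (SD). It was not called at 18 h (-0.46 ± 0.28, adjusted p = 0.204), fell by 1.51 ± 0.34 at 3 d (adjusted p = 0.00199) and kept 34.4% of its vehicle level there, more than the 14.6% of Plk1. That difference between the genes was not tested.

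The chromosomal passenger complex, which corrects wrong attachments of microtubules and steers cytokinesis, was the role in which every tested member passed the test at both times. Its catalytic subunit Aurora B (Aurkb), its scaffold Incenp and its targeting subunits survivin (Birc5) and borealin (Cdca8) were each lower at 18 h and at 3 d, and all but Incenp were also lower at 3 d than at 18 h. Cdca8 was at 117, 109, 62.0, 132.5 and 116 CPM under vehicle, at 24.3, 51.4, 53.0, 19.3 and 39.8 CPM at 18 h and at 12, 3.79, 9.32 and 8.95 CPM at 3 d. The groups did not overlap, and vehicle replicate 3 was the lowest of its group. Cdca8 fell by 1.53 ± 0.26 at 18 h (adjusted p = 2.15e-04), by 3.60 ± 0.36 at 3 d (adjusted p = 6.88e-07) and by 2.07 ± 0.37 between the times (adjusted p = 6.18e-04).

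Birc5 was at 84.2, 68.9, 69.2, 81.1 and 60.1 CPM under vehicle, at 30.1, 59.1, 67.7, 20.7 and 46.7 CPM at 18 h and at 3.99, 0.948, 5.08 and 7.58 CPM at 3 d. Its 18 h libraries spread from far below vehicle into the vehicle range, and all 3 d libraries were far below both. Its 18 h fall, 0.72 ± 0.26 on the log2 scale, only just passed (-0.72, adjusted p = 0.0408) and was not called when any of vehicle replicates 1, 2 and 4 or of 18 h replicates 1, 4 and 5 was left out (adjusted p 0.0608 to 0.0957). It was also not called with a replicate block (adjusted p = 0.0575 by title numbers and 0.0528 by description numbers), with the filter at 20 CPM (adjusted p = 0.0516) or with only the 2 groups compared (adjusted p = 0.0508). Without 18 h replicates 2 and 3 it was -1.18 (adjusted p = 0.00294). At 3 d Birc5 fell by 3.97 ± 0.44 (adjusted p = 6.88e-07), to 6.05% of vehicle, and from 18 h to 3 d by 3.25 ± 0.44 (adjusted p = 1.7e-05). Aurkb went from 39.7 ± 7.37 to 18.3 ± 7.19 and 3.69 ± 1.26 CPM (SD), with no overlap between groups. Incenp went from 114 ± 21.1 to 58.8 ± 20.3 and 36.5 ± 9.26 CPM. At 3 d Incenp kept 32.0% of its vehicle level and Aurkb 9.30%, and the step of Incenp from 18 h to 3 d, -0.67 ± 0.24, was not called (adjusted p = 0.0795).

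**Figure D5:**
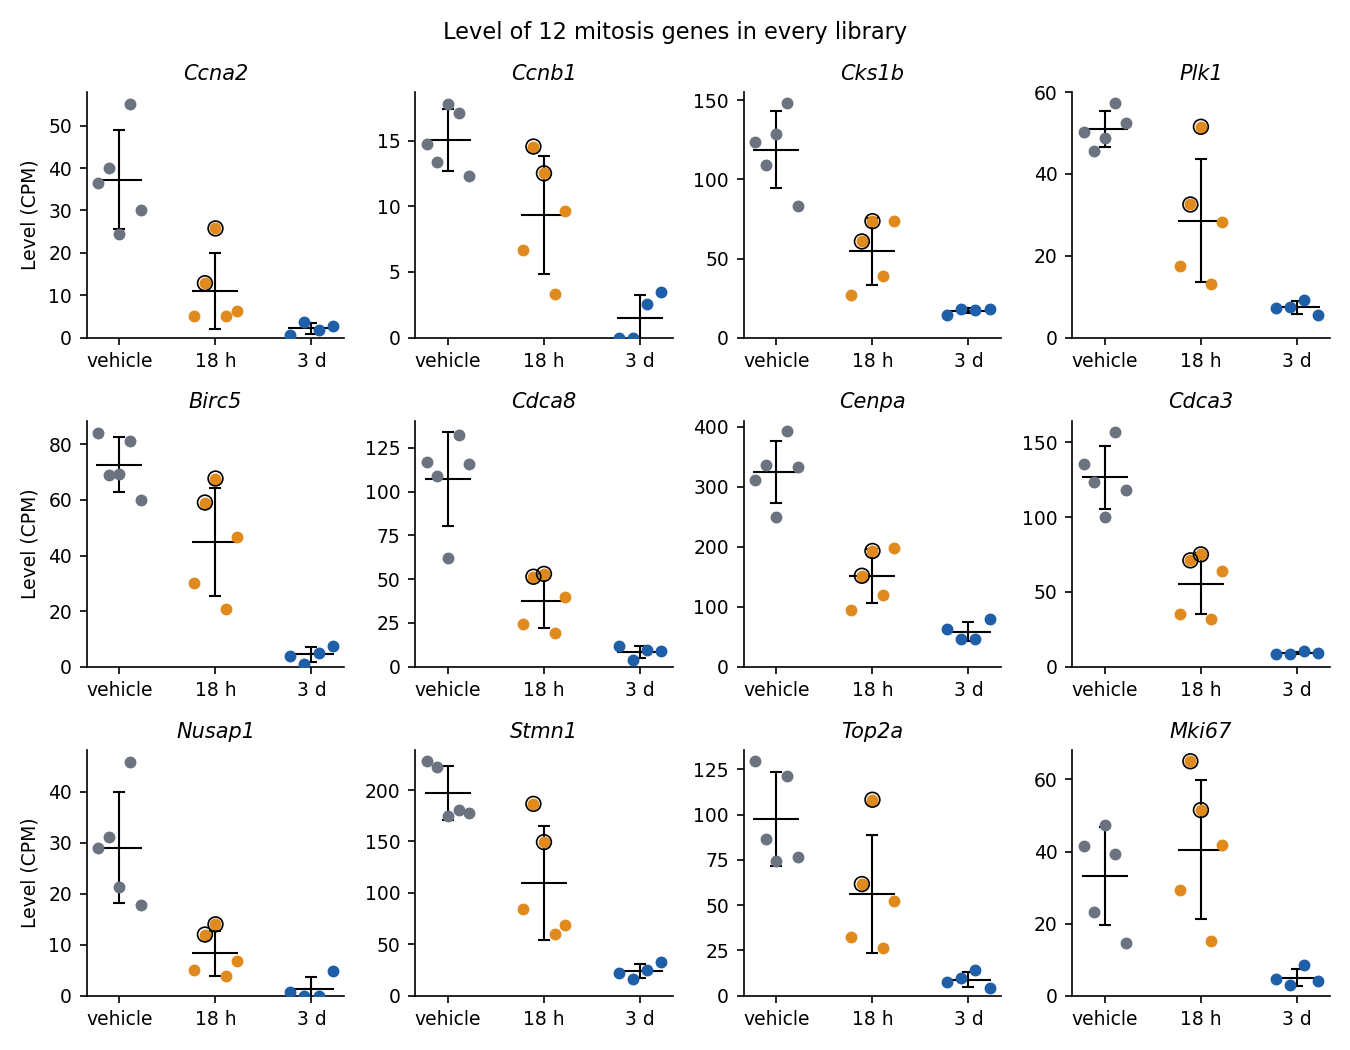
Level in CPM (linear axes from 0) of 12 mitosis genes in every library, vehicle in grey, 18 h in orange and 3 d in blue, with the mean and SD of each group in black and rings on 18 h replicates 2 and 3. The ringed points are the upper points of the 18 h group in most panels, and the 3 d points lie below vehicle in all 12.

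At the kinetochore, where chromosomes attach to the spindle, all 4 tested members were lower at 3 d and lower at 3 d than at 18 h, and 3 were lower at 18 h. Cenpa, the histone H3 variant that marks centromeres, was at 312, 337, 248.7, 392 and 332 CPM under vehicle, at 94.5, 151.5, 193, 119 and 198 CPM at 18 h and at 62.5, 45.5, 45.7 and 79.9 CPM at 3 d. The 3 groups did not overlap. Cenpa fell by 1.10 ± 0.19 at 18 h (adjusted p = 2.31e-04), by 2.46 ± 0.22 at 3 d (adjusted p = 2.92e-07) and by 1.36 ± 0.22 between the times (adjusted p = 3.35e-04). Spc24, a subunit of the Ndc80 complex that holds the microtubule, went from 69.1 ± 9.11 to 32.1 ± 14.3 and 7.49 ± 2.83 CPM (SD), and its 3 groups did not overlap either. Bub1b, the checkpoint protein BUBR1, went from 37.6 ± 10.1 to 19.9 ± 9.75 and 4.68 ± 2.21 CPM. Cenpe, the motor that carries chromosomes to the spindle equator, was not called at 18 h (-0.55 ± 0.33, adjusted p = 0.195) and fell by 2.66 ± 0.49 at 3 d (adjusted p = 2.01e-04). Bub1 and Cenpf, which act beside them, were not listed.

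The anaphase-promoting complex (APC/C) ends mitosis by marking securin and cyclin B for destruction, with Cdc20 as its activator and Ube2c as its ubiquitin-conjugating enzyme. Cdca3, itself a substrate of this complex, was at 135.5, 123, 100.2, 157 and 118 CPM under vehicle, at 35.1, 71.1, 75.1, 32.1 and 63.9 CPM at 18 h and at 8.64, 8.54, 10.2 and 8.95 CPM at 3 d. The groups did not overlap, and the 3 d libraries were nearly equal. Cdca3 had the smallest adjusted p of all members at 3 d, with falls of 1.20 ± 0.21 at 18 h (adjusted p = 1.59e-04), 3.80 ± 0.29 at 3 d (adjusted p = 2.48e-08) and 2.59 ± 0.30 between the times (adjusted p = 3.5e-06). Ube2c went from 185.5 ± 26.6 to 85.9 ± 43.3 and 15.2 ± 4.89 CPM (SD) and was called in all 3 comparisons. Cdc20 went from 42.6 ± 10.2 to 26.1 ± 13.7 and 6.12 ± 3.20 CPM and was called at 3 d (-2.85 ± 0.45, adjusted p = 9.87e-05) and not at 18 h (-0.74 ± 0.32, adjusted p = 0.0812), except without 18 h replicates 2 and 3 (-1.33, adjusted p = 0.00532). The 3′ ends of Cdc20 and Ube2c overlap genes on the other strand (Elovl1 and Tnnc2).

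Pttg1, which encodes securin, the inhibitor that keeps sister chromatids joined until the APC/C destroys it, was not called in any comparison. It was at 106, 92.2, 91.0, 97.7 and 93.3 CPM under vehicle, at 106, 107, 103, 100.9 and 119 CPM at 18 h and at 88.4, 69.2, 115 and 120.5 CPM at 3 d. The 3 groups overlapped, and the 3 d group spread the most. Its log2 changes were 0.16 ± 0.15 at 18 h (adjusted p = 0.433) and 0.04 ± 0.16 at 3 d (adjusted p = 0.885), and its mean levels were 96.0 ± 5.93, 107 ± 6.95 and 98.3 ± 24 CPM. Pttg1 was singled out after its values were seen.

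Of the 11 spindle motors and microtubule proteins, all of them tested, 6 were lower at 18 h, 9 at 3 d and 8 at 3 d against 18 h. Nusap1, which bundles microtubules around chromosomes, was at 28.9, 31.1, 21.4, 45.8 and 17.7 CPM under vehicle, at 5.02, 12, 14, 3.77 and 6.87 CPM at 18 h and at 0.664, 0, 0 and 4.82 CPM at 3 d. All 18 h libraries were below vehicle, and only 3 d replicate 4 reached into the 18 h range. Nusap1 fell by 1.84 ± 0.42 at 18 h (adjusted p = 0.00231) and by 4.18 ± 0.76 at 3 d (adjusted p = 6.11e-05). The step between the times, -2.35 ± 0.79 (adjusted p = 0.029), was not called without 18 h replicate 2 or 3 or without 3 d replicate 1, 2 or 3 (adjusted p 0.0555 to 0.0925), without both 18 h replicates 2 and 3 (adjusted p = 0.178) or with the replicate block by description numbers (adjusted p = 0.0945), and the 3 d level rests on a few counts.

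Stmn1 (stathmin, which destabilises microtubules and is switched off by phosphorylation in mitosis) was at 228, 222, 175, 181 and 178 CPM under vehicle, at 84.5, 187, 149, 60.4 and 68.7 CPM at 18 h and at 21.9, 16.1, 25.4 and 32.4 CPM at 3 d. The 18 h replicate 2 was within the vehicle range, and the 3 d libraries were below all others. Stmn1 fell by 0.85 ± 0.26 at 18 h (adjusted p = 0.016), fell by 3.02 ± 0.31 at 3 d (adjusted p = 4.04e-06) and fell by 2.17 ± 0.32 between the times (adjusted p = 1.95e-04). Without 18 h replicates 2 and 3 its 18 h change was -1.47 (adjusted p = 1.41e-05). Up to 73.3% of the stretches of its transcript end also occur in Gm11223 or Stmn2, so its count is uncertain.

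The lowest members at 3 d were Hmmr, a spindle-associated hyaluronan receptor, and Prc1, which bundles the antiparallel microtubules of the spindle midzone. Hmmr had 1 count in all 4 libraries at 3 d against 121 in the 5 vehicle libraries, a ratio of 1.26% after scaling (95% interval 0.0318% to 7.18%, counting error only). Prc1 had 3 counts against 199, a ratio of 2.31% (0.472% to 6.84%). Both were also called at 18 h, at 37.4% and 52.7% of vehicle. All 18 h libraries of Hmmr were below vehicle (adjusted p = 0.00587), while those of Prc1 overlapped vehicle and its call only just passed (adjusted p = 0.0457). The 3′ end of Prc1 overlaps Rccd1 on the other strand. Of the motors, Kif22, a chromosome-bound kinesin, fell to 48.7% of vehicle at 18 h (-1.05 ± 0.38, adjusted p = 0.046) and 7.01% at 3 d (-3.75 ± 0.60, adjusted p = 1.6e-04). Kif11, the kinesin that pushes spindle poles apart, was not called at 18 h (-0.67 ± 0.45, adjusted p = 0.259) and fell by 3.27 ± 0.76 at 3 d (adjusted p = 0.00144), with 0 counts in 3 d replicates 1 and 2.

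Racgap1 and Kif23 form centralspindlin, the complex that sets up the cleavage furrow. Racgap1 was at 66.3 ± 15.2, 47.7 ± 21.6 and 14.4 ± 2.83 CPM (SD) and was called at 3 d (-2.21 ± 0.32, adjusted p = 4.38e-05). At 18 h Racgap1 was not called (-0.49, adjusted p = 0.139), except without 18 h replicates 2 and 3 (-0.92, adjusted p = 0.0133). Kif23 was at 25.9, 16.7, 16.3, 31.5 and 11.6 CPM under vehicle, at 5.85, 53.9, 36.1, 7.07 and 25.4 CPM at 18 h and at 1.99, 11.4, 2.54 and 6.89 CPM at 3 d. Its highest libraries of all 14 were 18 h replicates 2 and 3, while replicates 1 and 4 lay below vehicle. Kif23 was not called at 3 d (-1.90 ± 0.71, adjusted p = 0.0507), although every 3 d library was below every vehicle library, and without 18 h replicates 2 and 3 the same change was called (adjusted p = 0.0107). Its difference between 3 d and 18 h was called (-2.18 ± 0.70, adjusted p = 0.0489) and was not called without those libraries (-1.20, adjusted p = 0.249).

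Tacc3, a clathrin-binding spindle protein, fell by 1.36 ± 0.38 at 18 h (adjusted p = 0.0113) and by 2.22 ± 0.44 at 3 d (adjusted p = 0.00186), and its 3 d libraries held 7.97, 8.54, 37.3 and 12.4 CPM, of which replicate 3 was within the 18 h range. Ckap2, a microtubule-stabilising protein, was not called at 18 h (-0.68 ± 0.38, adjusted p = 0.162) and fell by 2.22 ± 0.53 at 3 d (adjusted p = 0.002). Kif20b, a kinesin of late mitosis, was at 8.27 ± 1.27, 5.08 ± 1.67 and 4.94 ± 1.84 CPM (SD). All its dexamethasone libraries were below vehicle, and it was not called at either time (adjusted p = 0.113 and 0.149).

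Among the 5 genes of chromosome structure, 3 were tested, 0 of these were lower at 18 h by edgeR and 2 were lower at 3 d. At an unadjusted p below 0.05, and by DESeq2 and limma voom, 1 was lower at 18 h (Top2a). Top2a (topoisomerase II alpha, which untangles sister chromatids) was at 129, 86.7, 74.2, 121 and 76.3 CPM under vehicle, at 32.6, 61.6, 108, 26.4 and 52.2 CPM at 18 h and at 7.31, 9.48, 14.4 and 4.13 CPM at 3 d. Of the 18 h libraries, only replicate 3 was within the vehicle range. The 18 h change was -0.81 ± 0.32 and missed the threshold (adjusted p = 0.0571), but it passed without 18 h replicate 3 (-1.19, adjusted p = 0.0026), without both replicates 2 and 3 (-1.41, adjusted p = 0.00101) and without vehicle replicate 3 (-0.90, adjusted p = 0.0496). It also passed by DESeq2 (adjusted p = 0.0456), by limma voom (adjusted p = 0.0398) and with the replicate block by title numbers (adjusted p = 0.0415). At 3 d Top2a fell by 3.50 ± 0.45 (adjusted p = 2.97e-05), and from 18 h to 3 d by 2.69 ± 0.46 (adjusted p = 6.27e-04).

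Mki67, whose product Ki-67 coats mitotic chromosomes and is the usual stain for dividing cells, was not lower at 18 h. It was at 41.6, 23.3, 47.3, 39.2 and 14.7 CPM under vehicle, at 29.3, 65.1, 51.5, 15.1 and 41.9 CPM at 18 h and at 4.65, 2.85, 8.47 and 4.13 CPM at 3 d. The vehicle and 18 h groups overlapped over most of their range, with 18 h replicates 2 and 3 the highest libraries of all, and the 3 d libraries were below both groups. The 18 h change was 0.23 ± 0.34 (adjusted p = 0.629) and turned to -0.26 without 18 h replicates 2 and 3 (adjusted p = 0.621). At 3 d Mki67 fell by 2.74 ± 0.51 against vehicle (adjusted p = 5.25e-04) and fell by 2.97 ± 0.51 against 18 h (adjusted p = 3.94e-04).

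The condensin subunit Smc4 was at 16.5 ± 4.55, 24.9 ± 13.9 and 18.5 ± 10.1 CPM (SD) and was not called in any comparison, with 18 h replicates 2 and 3 at 44.5 and 33.1 CPM against 11 to 21.7 CPM in the other 3. Its partner Smc2 had 0 to 13 counts per library and was not tested. Hmgb2, a DNA-bending chromatin protein of dividing cells, was at 1.02, 3.33, 0.509, 0.552 and 3.86 CPM under vehicle, at 0.836, 1.71, 0.736, 2.83 and 0.687 CPM at 18 h and at 3.32, 0, 0 and 0 CPM at 3 d. These are 12, 11 and 5 counts in the groups, too few to compare at this depth. Up to 69.4% of the stretches of its transcript end also occur in other annotated genes, and no source used here says how shared reads were counted.

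A list of 82 other mitosis genes was read beside the members. Of these, 71 were listed and 51 tested. At 18 h, 22 were lower and 1 was higher, against 17.3% and 17.0% of all tested genes, with a median log2 change of -0.74. At 3 d, 36 were lower and 1 was higher, against 13.8% and 12.1% of all tested genes, with a median of -2.07. Between the times 24 were lower and 0 higher, against 6.91% and 4.78% of all tested genes, with a median of -1.12. By edgeR 1 was higher between the times at an unadjusted p below 0.05, and 0 by DESeq2 and limma voom. At 18 h the smallest adjusted p among the called genes belonged to Pkmyt1 (a kinase that inhibits Cdk1, -1.14 ± 0.17, adjusted p = 3.51e-05), Cdca5 (sororin, which protects cohesion, -1.84 ± 0.30), Anapc5 (a subunit of the APC/C, -0.89 ± 0.18), Spc25 (a partner of Spc24, -1.76 ± 0.36) and Zwint (a kinetochore protein, -0.99 ± 0.20). At 3 d they were Cdca5 (-3.40 ± 0.45), the centromere proteins Cenpm (-3.18 ± 0.43) and Cenph (-3.14 ± 0.48), Spc25 (-3.83 ± 0.60) and the condensin subunit Ncaph (-2.95 ± 0.41). Between the times they were Fam64a (-3.14 ± 0.66), Cdca2 (-3.20 ± 0.78), Cdkn3 (-2.75 ± 0.60) and the kinesins Kif18b (-2.87 ± 0.68) and Kifc1 (-1.62 ± 0.33). The gene that was higher at both times was Cdc26, a small APC/C subunit, at 4.10, 15.2 and 12.9 CPM in vehicle, 18 h and 3 d (1.76, adjusted p = 0.00227, and 1.55, adjusted p = 0.0124), named after its values were seen.

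The regulators of mitotic transcription, 25 genes of the E2F, DREAM, B-MYB, FOXM1, NF-Y and p53 pathways of which 20 were tested, were called in both directions. At 18 h, 3 were lower and 3 higher, near the shares over all tested genes (17.3% and 17.0%). At 3 d 5 were lower and 2 higher, against 13.8% and 12.1% of all tested genes, and the medians were -0.13 and -0.32. Between the times 4 were lower and 0 higher, against 6.91% and 4.78% of all tested genes, with a median of -0.13. By edgeR 1 was higher between the times at an unadjusted p below 0.05, and 0 by DESeq2 and limma voom. Cdkn1a, which encodes the Cdk inhibitor p21, was at 4.06, 4.45, 8.14, 4.97 and 5.40 CPM under vehicle, at 95.3, 21.4, 55.9, 18.4 and 45.3 CPM at 18 h and at 14.6, 12.3, 15.3 and 26.2 CPM at 3 d. Every dexamethasone library was above every vehicle library. Cdkn1a rose by 3.07 ± 0.45 at 18 h (adjusted p = 3.6e-05) and by 1.64 ± 0.49 at 3 d (adjusted p = 0.0175), and it was lower at 3 d than at 18 h (-1.43 ± 0.40, adjusted p = 0.0261). Trp53, which encodes p53, fell by 0.996 ± 0.181 at 18 h (adjusted p = 2.85e-04) and by 1.09 ± 0.19 at 3 d (adjusted p = 4.86e-04). The repressor E2f8 fell by 1.76 ± 0.37 at 18 h (adjusted p = 8.13e-04) and by 4.83 ± 0.96 at 3 d, where it was at 0 to 0.689 CPM. The activator E2f2 was not called at 18 h (-0.17, adjusted p = 0.639) and fell by 2.42 ± 0.34 at 3 d, and E2f1 followed the same order, with -0.87 (adjusted p = 0.055) and -2.43 ± 0.48.

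Of the factors known to act at CHR elements, Foxm1 was at 21.8, 16.7, 14.2, 17.1 and 10.8 CPM under vehicle, at 9.20, 11.1, 13.3, 5.66 and 15.8 CPM at 18 h and at 3.32, 8.54, 7.62 and 3.44 CPM at 3 d. Its 3 d libraries were below vehicle, and its 18 h libraries overlapped both. Foxm1 was called at 3 d (-1.54, adjusted p = 0.00452) and not at 18 h (-0.58, adjusted p = 0.153). Mybl2, which encodes B-MYB, was at 2.03 to 7.78 CPM under vehicle and at 0 to 2.85 CPM after dexamethasone and was not tested. Of the pocket proteins of the DREAM complex, Rbl1 (p107) rose at 18 h from 12.9 to 25.9 CPM (1.01 ± 0.23, adjusted p = 0.00168) and was at 16.4 CPM at 3 d, while Rbl2 (p130) was at 57.1 and 62.2 CPM and rose to 89.5 CPM at 3 d (0.64, adjusted p = 0.024). The NF-Y subunits Nfya, Nfyb and Nfyc were not called in any comparison.

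In the authors' deposited table, which lists fold changes and adjusted p for the same 3 comparisons, 19, 29 and 25 of the 35 listed members were lower at 18 h, at 3 d and at 3 d against 18 h, and 0 were higher in each. Of all 10303 listed genes, 13.9%, 11.8% and 6.36% were lower in the authors' deposited table. The members not called in the authors' deposited table numbered 16, 6 and 10.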

How the data were processed

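Sorted thymic NKT cells were profiled by bulk MARS-seq, per the labels' protocols, in 5 vehicle, 5 dexamethasone 18 h and 4 dexamethasone 3 d libraries. The authors deposited 1 table, which holds raw counts, as whole numbers, for each gene and library. The submitters' processing notes name mm10, bcl2fastq, cutadapt, STAR 2.5.2b, HTSeq and DESeq2. No source used here says how molecular identifiers or strand were handled, and intervals cover counting error only. The deposited log2 fold changes and adjusted p-values of the authors were used only to count calls. They were deposited as vehicle over dexamethasone, and their sign was turned.

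Of 10320 rows, 17 hold gene symbols turned into dates and were left out (0.102% to 0.147% of a library). The lowest maximum count of a listed gene was 6. Counts were tested in R 4.3.3 with edgeR 4.0.16 (filter by expression in groups, TMM, robust quasi-likelihood, all 3 groups in 1 fit, two-sided). P-values were adjusted by Benjamini-Hochberg over 7965 genes, and a call needs an adjusted p below 0.05. The test was tried on simulated counts first. SE are from the same fit, and SD from CPM. DESeq2 1.42.0 and limma 3.58.1 (voom with quality weights) served as alternatives. Promoters are RefSeq sequences (GRCm38.p6), and gene ends were read from GENCODE vM21 (GRCm38).

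The members, the lists and the rule for named genes were chosen with earlier results of these data known. Values in every library were given for the members with the smallest adjusted p in each role and comparison, and for Mki67, Top2a, Ccnb1, Ccna2, Birc5, Hmgb2 and Stmn1. The rule also names Cdk1, which is not listed and has no values. Values in every library for Pttg1, Kif23, Cdkn1a and Foxm1 were added after they were seen. Of the other mitosis genes and regulators, up to 5 and 4 called genes by adjusted p were named per comparison, with Foxm1, Mybl2 and Rbl2. Same-numbered libraries did not deviate together (title numbers, 13 pairs, correlation -0.211 to 0.153), so no block was used. Replicates differed beyond counting noise in all 26 pairs within groups (chi-square per degree of freedom 3.69 to 16.5), and none was merged.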

Additional observations from a re-analysis of the deposited data

Results flagged for a closer look

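The 3 d and 18 h groups, which share the vehicle controls, differed in the level of 26 mitosis genes by the direct edgeR test, all lower at 3 d. Among the genes given in every library, the log2 difference of 3 d against 18 h was -2.29 for Ccna2, -2.49 for Ccnb1, -1.68 for Cks1b, -1.93 for Plk1, -3.25 for Birc5 and -2.07 for Cdca8. It was -1.36 for Cenpa, -2.59 for Cdca3, -2.35 for Nusap1, -2.17 for Stmn1, -2.69 for Top2a and -2.97 for Mki67.

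Of 99 sets of 4 or 5 replicate values, 5 held a library far from the others, where the rule flags about 1 in 20 sets by chance. All 5 were in the 3 d group, so the flags were not spread evenly over the groups, and the reason was not tested. Replicate 1 was low for Cks1b (14.6 CPM, others 17.8 to 18.0). Replicate 3 was high for Tacc3 (37.3 CPM, others 7.97 to 12.4), for Racgap1 (18.6 CPM, others 12.6 to 13.3) and for Hmmr (0.847 CPM, 1 count, others 0). Replicate 4 was high for Nusap1 (4.82 CPM, others 0 to 0.664).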

How the results depend on the processing

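The counts of mitosis genes called lower kept within 1.5 times of 19, 28 and 26 (18 h against vehicle, 3 d against vehicle, 3 d against 18 h) under the alternatives run, apart from 1 case. Requiring a mean of at least 20 CPM left 21 members and 17 calls for 3 d against 18 h. Leaving out each library in turn gave 15 to 22, 28 to 29 and 21 to 29 calls. The replicate block by title numbers gave 18, 29 and 25 calls and by description numbers 17, 28 and 23, although same-numbered libraries did not deviate together (titles, 1 of 13 pairs correlated over 0.1; descriptions, 0 of 13). Of 816 results for single genes under 23 settings, 787 kept direction and side of the threshold, 21 lost the call, 7 gained it and 1 changed sign. The sign change was Mki67 at 18 h, -0.26 without 18 h replicates 2 and 3, and the cause was not tested. Members under about 10 CPM rest on few counts.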
